A study of Mus musculus with 9 samples.

Results

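The region described here is the anterior part of the mouse HoxD gene cluster, with the genes Hoxd9, Hoxd8, Hoxd4, Hoxd3 and Hoxd1, the neighbouring gene Mtx2 and the gene desert on its telomeric side. Its members were all peaks of the 5 deposited lists whose start lay on chromosome 2 from 74535000 to 75550000 in the build mm9, a window of about 1 Mb that was set by position and not by any measured value. It took 222 of the 243649 peaks in the series. Hoxa13 gave 36 peaks at embryonic day 11.0 (E11.0), 123 a little later at E11.5, and 42 at E12.5. Hoxa11, mapped at E11.5, gave 11 in replicate 1 and 10 in replicate 2.

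The study mapped both homeodomain transcription factors by chromatin immunoprecipitation and sequencing, with home-made antibodies, in wild-type (WT) embryos of the ICR strain. Hoxa13 was mapped once in pooled autopods (the hand and foot region) of E11.0 embryos, once in whole limb buds of an E11.5 litter and once in limb buds at E12.5, and Hoxa11 was mapped in whole E11.5 limb buds in replicates 1 and 2. The other 4 of the 9 samples are input DNA, and no file of theirs was analysed here. The E12.5 library was made by another protocol than the rest, so stage cannot be told apart from dissected tissue at E11.0 or from protocol at E12.5. Whole limb buds hold both forearm and autopod cells, and a shared position in 2 lists therefore does not say that both proteins were bound in the same cells.

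HoxD genes in the limb are controlled by regulatory landscapes on either side of the cluster. The telomeric landscape, the gene desert beyond Mtx2, drives the more anterior genes in the early limb bud and the future forearm, while the centromeric landscape drives the posterior genes in the digits. Hoxa13 is needed for the autopod, Hoxa11 for the forearm and lower leg. Among the genes of the window, Hoxd9 acts with its paralogues in the proximal limb and the lumbosacral axis, Hoxd8 is active in the early limb bud, Hoxd4 and Hoxd3 take part in patterning the cervical vertebrae, and Hoxd1 is known from the wiring of pain-sensing neurons. Mtx2 encodes metaxin 2, a protein of the mitochondrial outer membrane. The peak lists carry no expression values, and no mm9 annotation was used, so peaks were placed by distance from the start of the window and not assigned to single genes.

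RefSeq's annotation of a later build, GRCm38.p6, was used for names and order only, and all 6 of the named genes were matched. Sorted by the start of each gene record, they come as Hoxd9, Hoxd8, Hoxd3, Hoxd4, Hoxd1 and Mtx2. The start of a record can lie far from its coding part. Hoxd3 before Hoxd4 is therefore not given here as the order of the genes in the cluster, for which the opening list stands. Between Mtx2 and the next well-known gene, Hnrnpa3, it lists 12 long noncoding RNAs, 5 pseudogenes and 1 protein-coding model. RefSeq also gives a promoter sequence for each of the 6 genes, from 250 bases before to 50 after the start. These were searched on both strands for the word CGTAAA, which reads TTTACG on the other strand, and for the word AATAAA, which reads TTTATT there. These are words that occur in known binding sites of posterior Hox proteins. The first word was in none of the 6 promoters and in 3.03% of all 32851 promoters in the table. The second was found only in Hoxd4, at 3 places, and in 19.6% of all promoters. Both contrasting promoters are shown with the matches in capitals. They are 5′ to 3′ on the plus strand of GRCm38.p6, Hoxd4 at chr2:74721728-74722027 with 39.7% G and C and Hoxd9 at chr2:74697513-74697812 with 68.3%.
Hoxd4: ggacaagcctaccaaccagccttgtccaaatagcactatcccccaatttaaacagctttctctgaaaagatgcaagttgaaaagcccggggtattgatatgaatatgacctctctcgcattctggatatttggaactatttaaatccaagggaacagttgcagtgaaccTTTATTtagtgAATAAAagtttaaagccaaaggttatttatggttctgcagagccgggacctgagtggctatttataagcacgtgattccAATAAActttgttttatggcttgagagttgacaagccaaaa
Hoxd9: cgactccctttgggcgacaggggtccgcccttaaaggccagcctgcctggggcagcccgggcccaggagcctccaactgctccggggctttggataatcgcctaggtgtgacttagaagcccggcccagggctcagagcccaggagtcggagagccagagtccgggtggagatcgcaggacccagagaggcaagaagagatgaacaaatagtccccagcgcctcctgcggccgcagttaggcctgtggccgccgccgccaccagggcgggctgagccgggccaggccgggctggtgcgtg
A match is a description of letters and not a bound site. The coordinates of these promoters belong to GRCm38.p6 and cannot be set beside the mm9 positions of the peaks that follow.

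The window was rich in peaks of every list when set beside the other windows of the same length tiled over chromosomes 1 to 19 and X. Hoxa13 had 36 peaks at E11.0, against a mean of 19.2 over 2589 other windows, and 8.73% of those windows held at least as many. At E11.5 it had 123, against a mean of 54.9, a count that 1.58% of the other windows reached. At E12.5 it had 42, against 16.9, and 2.24% of the other windows held as many. Hoxa11 had 11 peaks in replicate 1 against a mean of 1.10, and 10 in replicate 2 against 0.605. As many were found in 0.579% and 0.309% of the other windows. The Hoxa11 lists, of 2953 and 1647 peaks, are far shorter than those of Hoxa13. The size of the contrast therefore cannot be compared between the proteins. The median of the other windows was 0 in either Hoxa11 list. These ranks describe single libraries and carry no p-value.

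Peaks of Hoxa13 were spread along the whole window except for 1 stretch, and those of Hoxa11 lay at 15 sites. Merging peaks that shared at least 1 bp gave 141 sites. Of these, 89 were found in 1 list and 72 of those in Hoxa13 at E11.5 alone, by far the longest list. No site held a peak of all 5 lists, and 5 sites held 4. The median gap between neighbouring sites was 3.96 kb, and 93.6% of sites had another within 10 kb. The longest gap, 64.6 kb from 74571823 to 74636450, held no peak of any list.

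**Figure D1:**
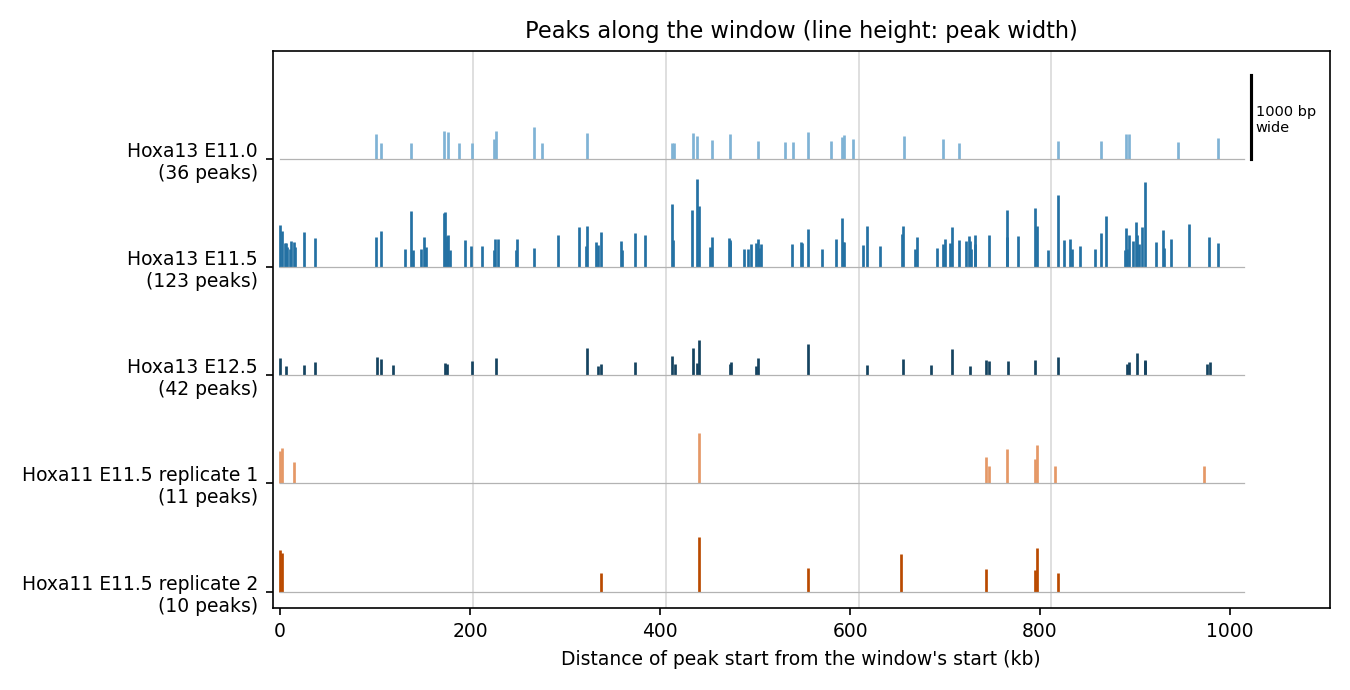
Every peak of the window by the distance of its start from the window's start (kb), 1 row per list, with the height of each line giving the peak width in bp and grey lines marking 5 equal parts. The early E11.0 list begins only at 101 kb, and 10 of the 21 Hoxa11 peaks lie between 740 and 820 kb.

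The first 70 kb, a stretch picked after its values were seen, differed in content between the Hoxa13 stages. No E11.0 peak started there, while 11 peaks did at E11.5 and 4 did at E12.5, along with 3 Hoxa11 peaks in replicate 1 and 2 in replicate 2. The first E11.0 peak began 101 kb into the window, at 74636451, while the first peaks of the other 4 lists began within 0.304 kb of its edge. Just outside that edge the last Hoxa13 peaks lay 6.37 kb away in the E11.0 list, 6.74 kb in that of E11.5 and 6.71 kb in that of E12.5, so E11.0 did have a peak close by. When each Hoxa13 list was limited to its widest 44699 peaks, the length of the shortest, the first 70 kb held 4 peaks of E11.5. That limit leaves the E12.5 list as it is and can only remove E11.0 peaks. At the far edge the last peaks inside began 28.0 kb before the end in the lists of E11.0 and E11.5 and 36.4 kb before it in that of E12.5. The first E11.5 peak beyond it began 2.32 kb away.

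Over 5 equal parts of the window, Hoxa13 had peaks in every part at each stage, and Hoxa11 replicate 1 left a part empty. Short lists vary more between parts by counting error alone, so evenness was not compared between stages. From the Hox end to the telomeric end, Hoxa13 had 7, 5, 15, 3 and 6 peaks at E11.0. It had 28, 18, 26, 26 and 25 at E11.5, and 10, 5, 10, 9 and 8 at E12.5. Hoxa11 had 3, 0, 1, 5 and 2 peaks in replicate 1 and 2, 1, 2, 4 and 1 in replicate 2. The part from 406 to 609 kb thus held 15 of the 36 E11.0 peaks, and the next part, from 609 to 812 kb, held 3 of them but 9 of the 21 Hoxa11 peaks.

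**Figure D2:**
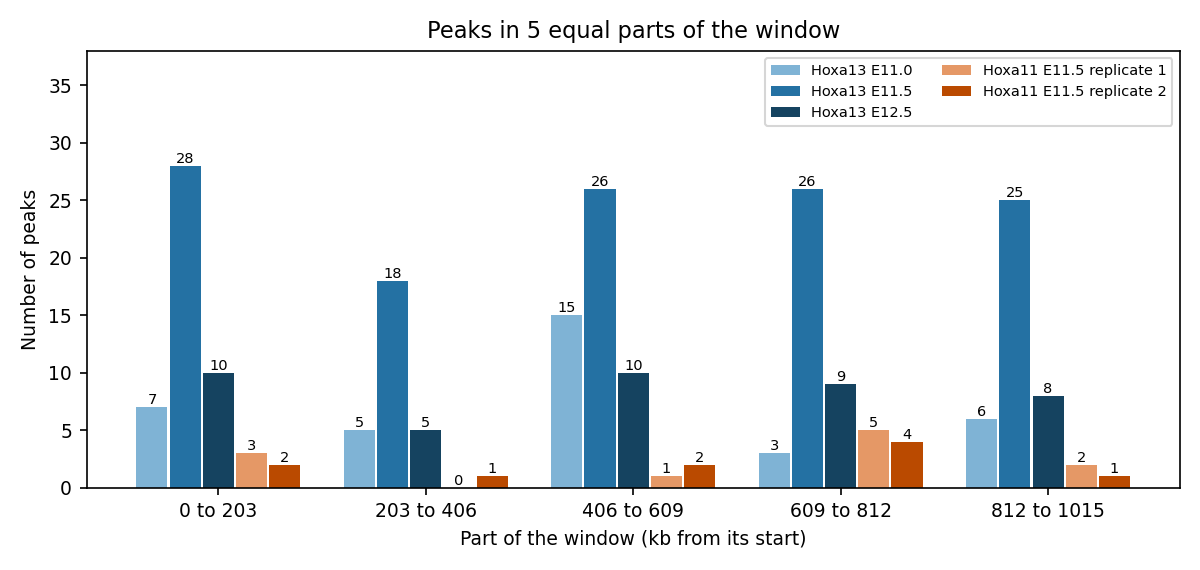
Number of peaks (vertical axis) of each list in 5 equal parts of the window, named by distance from its start in kb. E11.0 Hoxa13 peaks are most numerous from 406 to 609 kb (15) and both Hoxa11 replicates from 609 to 812 kb (5 and 4).

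By stage, most Hoxa13 sites of the window held an E11.5 peak, in the longest of the lists. Of the 141 sites, 14 held a peak of all 3 stages (6 under a reciprocal overlap of 50%), 20 of E11.5 and E12.5 only, 14 of E11.0 and E11.5 only, and no site joined E11.0 to E12.5 in the absence of E11.5. A further 75 had E11.5 as their only stage, 8 had E11.0 and 7 had E12.5, while 3 had no Hoxa13 peak. Of E11.5 window peaks, 61.0% met no other stage (exact 95% interval 51.8 to 69.6), against 67.4% of the list. At E11.0 it was 22.2% (10.1 to 39.2), against 37.9%, and at E12.5 16.7% (6.97 to 31.4), against 24.5%. These list shares lay inside the intervals, so no difference from the lists was detectable. Of the 36 E11.0 peaks, 28 met an E11.5 peak (77.8%, exact Clopper-Pearson 95% interval 60.8 to 89.9), against 58.1% in the whole list, which lies below that interval. In the neighbouring segments of equal length, 27 of 31 did so before the window (87.1%) and 14 of 16 after it (87.5%). A share above that of the list was thus not particular to the window. With Hoxa13 lists of equal length the share in the window was 55.2%. The whole-list share was not recomputed at that length, so the 58.1% is no background for it. Intervals cover counting error over peaks, which lie close together and come from single libraries. Of the 42 E12.5 peaks, 35 met E11.5 (83.3%, 68.6 to 93.0), against 70.7% in the whole list, which lies inside the interval. Under a reciprocal overlap of 50% the share in the window was 21.4%, and the whole-list share was not recomputed.

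E11.0 and E12.5 peaks met each other about as often as in the whole lists. E12.5 was met by 13 of the 36 E11.0 peaks (36.1%, 20.8 to 53.8), against 30.7% of the list, and E11.0 by 13 of the 42 E12.5 peaks (31.0%, 17.6 to 47.1), against 35.6%. Among 123 peaks at E11.5, an E11.0 peak was met by 28 (22.8%, 15.7 to 31.2), against 20.5% in the list, and an E12.5 peak by 34 (27.6%, 20 to 36.4), against 21.7%. Both other stages were met by 13 of the E11.0 peaks (36.1%), against 26.8% of that list, by 14 of the E11.5 peaks (11.4%, 6.36 to 18.4), against 9.60%, and by 13 of the E12.5 peaks (31.0%), against 30.8%. All of these list shares lay inside the intervals of the window, so no difference from the whole lists was detectable at this number of peaks.

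**Figure D3:**
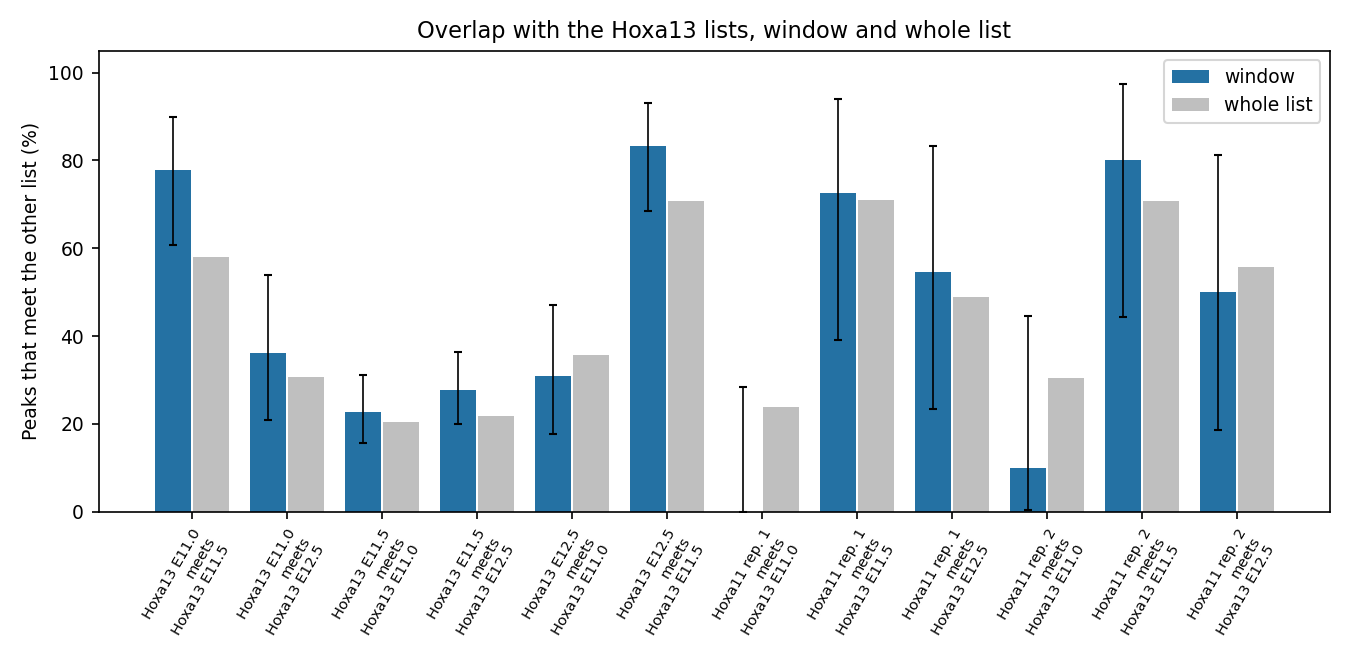
Share of peaks (%) that share at least 1 bp with a peak of the other list, for peaks of the window (blue, with exact 95% intervals) and of the whole list (grey). E11.0 and E12.5 Hoxa13 peaks meet E11.5 in 77.8% and 83.3% of cases, and Hoxa11 peaks meet E11.0 Hoxa13 in 0% and 10.0%.

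The 14 sites of all 3 Hoxa13 stages were unevenly placed. So were the E11.0 peaks that each such site needs, at 7, 5, 15, 3 and 6 over the 5 equal parts. The first of the 5 equal parts held 3 of them, from 74636451 to 74636818, from 74640934 to 74641364 and from 74736465 to 74736711. The next part held 2, from 74761489 to 74761834 and from 74858113 to 74858619. The part from 406 to 609 kb held 6, at 74947141 to 74947897, 74969453 to 74970139, 74973618 to 74974670, 75009080 to 75009426, 75038090 to 75038428 and 75090854 to 75091304. There was none from 609 to 812 kb. The last part held 3, from 75353614 to 75354473, from 75426370 to 75426841 and from 75428964 to 75429352. At the site that starts at 74973618 the E11.0 and E12.5 peaks did not overlap each other and were joined only by the wide E11.5 peak.

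Of these 14 sites, 2 also held a Hoxa11 peak, in replicate 2 alone. At 75090854 to 75091304 the Hoxa13 peaks were 326 bp wide at E11.0, then 451 bp at E11.5, then 369 bp at E12.5, and the summit of Hoxa11 lay 1 bp from the midpoint of the E11.0 peak. The E12.5 peak ranked at percentile 96.9 of its list by width. At 75353614 to 75354473 the widths were 211, 860 and 219 bp at the same stages, and the Hoxa11 peak overlapped the E11.5 peak but lay 127 bp from the E11.0 peak and 117 bp from the E12.5 peak.

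Peak width, the only value per peak in 4 of the 5 lists, was above the list median for most E11.5 peaks of the window. There 82 of 123 peaks (66.7%) were wider than the list median of 286 bp, with widths of up to 1053 bp and a median of 324 bp. The neighbouring segment of equal length before the window had a similar E11.5 median, 327 bp, and the segment after it had 283 bp. At E12.5 the median was 164.5 bp in the window and 154 bp in the list, and at E11.0 it was 241 bp in the window and 245 bp in the list. The 14 E11.5 peaks that met both other stages had a median width of 441 bp, the 34 that met 1 of them 379.5 bp and the 75 that met neither 288 bp. The whole list shows the same order, at 391, 322 and 267 bp, and a wider peak is met more easily. Width is not occupancy and was used as a description.

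The 5 widest E11.5 peaks of the window each met another Hoxa13 stage. The widest, 1053 bp from 74973618 to 74974670, met E11.0 and E12.5. The next, 1018 bp from 75445590 to 75446607, met E12.5 only. Those of 860 bp from 75353614 to 75354473 and of 757 bp from 74947141 to 74947897 met both other stages, and that of 729 bp from 74976217 to 74976945 met E12.5 and both Hoxa11 replicates. The widest E12.5 peak of the window, 421 bp from 74976291 to 74976711, lay inside the last of these and ranked at percentile 98.2 of its list by width. The widest E11.0 peak, 385 bp from 74801516 to 74801900, met E11.5 only.

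Hoxa11 had peaks at 15 sites of the window, and 6 of these were found in both replicates. The number was also 6 under a reciprocal overlap of 50%, and with replicate 2 limited to peaks with a −log10 q of at least 5. In replicate 1, 6 of 11 peaks met replicate 2 (54.5%, 23.4 to 83.3), against 35.8% in the list, and in replicate 2, 6 of 10 met replicate 1 (60%, 26.2 to 87.8), against 64.6%. Whether the replicates are separate litters is not stated in the labels, and their spread may be technical.

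The strongest Hoxa11 site by the authors' values lay about 441 kb into the window, from 74976197 to 74976945. Its peaks were 608 bp wide in replicate 1 and 655 bp in replicate 2, where the authors' fold enrichment over the caller's background was 11.6 and the −log10 q was 86.8. It ranked 8 among the 1647 peaks of that list by q. Hoxa13 had a peak there of 729 bp at E11.5 and 421 bp at E12.5 and none at E11.0, where the nearest peak was 2278 bp from that of replicate 2.

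A pair of replicated sites lay at the very start of the window, on the Hoxd9 side. The first, from 74535107 to 74535634, was 6.87-fold enriched in replicate 2 with a −log10 q of 39.0, rank 38, and lay over a Hoxa13 peak of 506 bp at E11.5 and of 205 bp at E12.5. The second, from 74536748 to 74537288, had a 3.99-fold enrichment and a −log10 q of 12.7, and it lay over a Hoxa13 peak at E11.5 (429 bp) but not at E12.5. The nearest E11.0 peak lay 6266 bp from the first and 7907 bp from the second, before the window. A further Hoxa11 peak on this side, in replicate 1 alone from 74549710 to 74549967, met an E11.5 peak of 295 bp.

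The other 3 replicated sites lay between 743 and 797 kb from the start of the window. At 75277940 to 75278273 the enrichment was 3.83-fold, with a Hoxa13 peak at E12.5 (183 bp) but not at E11.5, where the nearest peak was 2492 bp from that of replicate 2. At 75329797 to 75330502 it was 4.37-fold, with Hoxa13 peaks of 706 bp at E11.5 and 185 bp at E12.5. At 75332317 to 75332947 it was 8.23-fold with a −log10 q of 34.9, rank 52, with a Hoxa13 peak at E11.5 (488 bp) only. Between them, replicate 1 alone had peaks from 75280829 to 75281035 and from 75300484 to 75300891, and each lay over Hoxa13 peaks of the E11.5 and the E12.5 list.

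**Figure D4:**
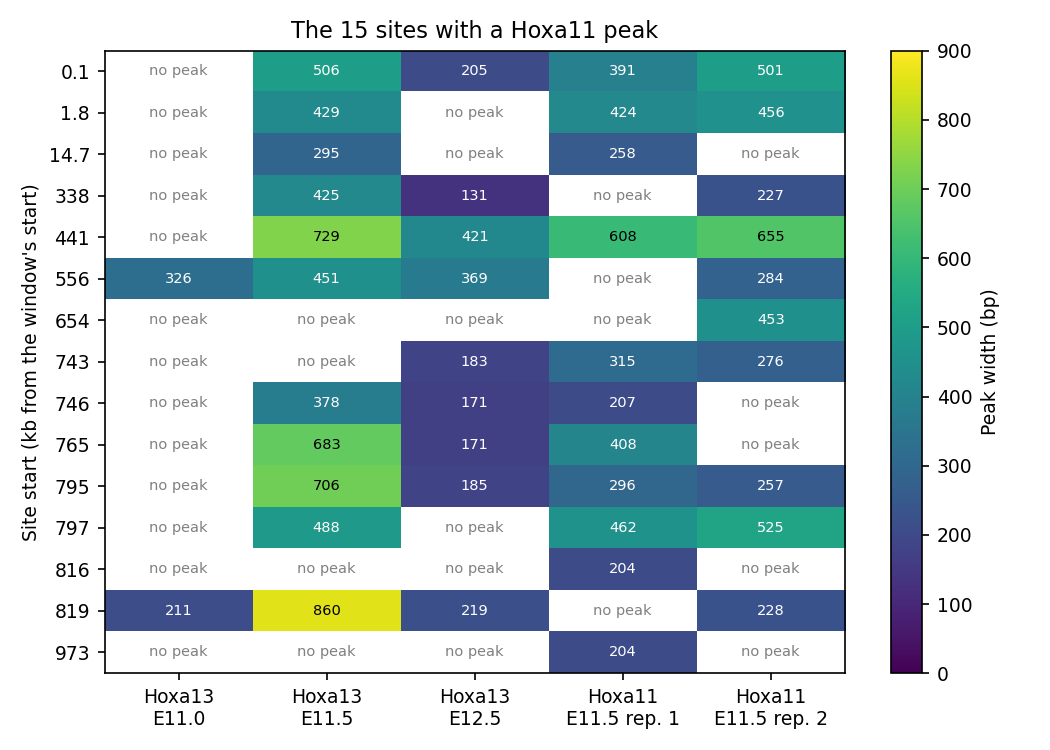
The 15 sites with a Hoxa11 peak, by distance of the site's start from the window's start (kb, down the page), with the width in bp of the peak in each list by colour and number. Of these sites, 2 hold an E11.0 Hoxa13 peak, 11 an E11.5 peak and 9 an E12.5 peak.

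The remaining Hoxa11 peaks were seen in 1 replicate. In replicate 2 the peak at 74873191 to 74873417 had a 3.19-fold enrichment and lay over an E11.5 Hoxa13 peak. It lay 64 bp from an E12.5 peak that the same E11.5 peak covered. The peak from 75188972 to 75189424 was 6.06-fold enriched with a −log10 q of 19.7, rank 179, and met neither replicate 1 nor any Hoxa13 list. Its nearest Hoxa13 peak, at E11.5, was 935 bp away. In replicate 1 the peaks from 75351011 to 75351214 and from 75508006 to 75508209, each 204 bp wide, at percentile 7.86 of their list by width, met no other list. By site, 3 of the 15 had Hoxa11 and no Hoxa13, and none of those 3 was replicated.

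All 6 replicated Hoxa11 sites met Hoxa13 at a later stage and none met the early autopod list. For any Hoxa13 stage the share was 100% (54.1 to 100), against 83.9% of the genome's replicated sites, which lies inside the interval. At E11.5, 5 of 6 met Hoxa13 (83.3%, 35.9 to 99.6), against 79.2% of the 1023 replicated sites of the genome, and at E12.5, 4 of 6 did (66.7%, 22.3 to 95.7), against 64.7%. At E11.0 it was 0 of 6, which allows up to 45.9%, against 30.6% of the genome's sites, so a lower share than elsewhere was not detectable with 6 sites. The single lists gave 0 of 11 in replicate 1 (up to 28.5%; 23.9% in the list) and 1 of 10 in replicate 2 (10.0%, 0.253 to 44.5; 30.5% in the list) for E11.0.

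Overlap with the later stages was near that of the whole lists in both replicates. Replicate 1 met E11.5 at 8 of 11 peaks (72.7%, 39.0 to 94.0), against 71.0%, and E12.5 at 6 of 11 (54.5%, 23.4 to 83.3), against 48.8%. Replicate 2 met E11.5 at 8 of 10 (80.0%, 44.4 to 97.5), against 70.8%, and E12.5 at 5 of 10 (50%, 18.7 to 81.3), against 55.7%. An input sample is named for both Hoxa11 replicate 1 and E11.5 Hoxa13, another for replicate 2, and the part of the shared input in the overlap was not tested. Of the 8 replicate 2 peaks that met E11.5, all 8 had their summit inside the Hoxa13 peak, 20 to 191 bp from its midpoint, and in the whole list 95.5% did. For E12.5 all 5 summits were inside, 10 to 62 bp from the midpoint, against 84.1% in the list.

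Seen from Hoxa13, peaks of the window coincided with Hoxa11 at a higher share than the lists as a whole in the later stages. A peak of either Hoxa11 replicate was met by 11 of 123 E11.5 peaks (8.94%, 4.55 to 15.4), against 1.67% of the list, and by 7 of 42 E12.5 peaks (16.7%, 6.97 to 31.4), against 4.09%. At E11.0 it was 1 of 36 (2.78%, 0.0703 to 14.5), against 1.79%. The first pair of list shares lay below the intervals of the window and the last inside. No test was made, since the peaks share their libraries and the Hoxa11 lists were themselves dense in the window. The 11 E11.5 peaks with Hoxa11 had a median width of 488 bp, and the 112 without had 313.5 bp. The whole list shows the same order, at 463 and 285 bp, and a wider peak is met more easily.

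In replicate 2, the only list with values per peak, the 10 peaks of the window ran from weak to strong, from rank 1528 to rank 8 of 1647 by q. Their fold enrichment, as the authors give it, ran from 3.15 to 11.6 with a median of 4.18, and the median of the list was 3.90. Of the 10, 6 lay above that median, and by −log10 q 7 lay above the list median of 7.10.

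The window was set beside the neighbouring segments of equal length on chromosome 2. The segment before it, from 73520000 to 74535000, lies on the side of the posterior HoxD genes, and the segment after it runs from 75550000 to 76565000. Hoxa13 had 36 peaks in the window at E11.0, against 31 in the segment before and 16 in the segment after. At E11.5 the window had 123, against 124 and 85, and at E12.5 it had 42, against 42 and 16. Hoxa11 replicate 1 had 11 peaks in the window, against 9 before and 4 after, and replicate 2 had 10, against 2 and 3. The gap between the replicates in the segment before, 9 and 2, is as large as most differences between segments, so replicate 1 alone shows no clear step. Replicated Hoxa11 sites numbered 6 in the window, against 2 before and 3 after.

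Sites of all 3 Hoxa13 stages were most numerous in the segment before. The window had 14 by an overlap of at least 1 bp, against 19 in the segment before and 4 in the segment after. Under a reciprocal overlap of 50% the window had 6, and the segments were not recounted. Of the E11.0 peaks, 13 of 36 met E12.5 in the window (36.1%), against 17 of 31 before (54.8%) and 4 of 16 after (25.0%). The share of the segment before lay just above the interval of the window, 20.8 to 53.8, and that of the segment after inside it. With 31 and 16 peaks, the segment shares have counting error of their own, which that interval leaves out. The comparison therefore does not show a difference between segments. None of these differences was tested, each Hoxa13 stage being 1 library.

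**Figure D5:**
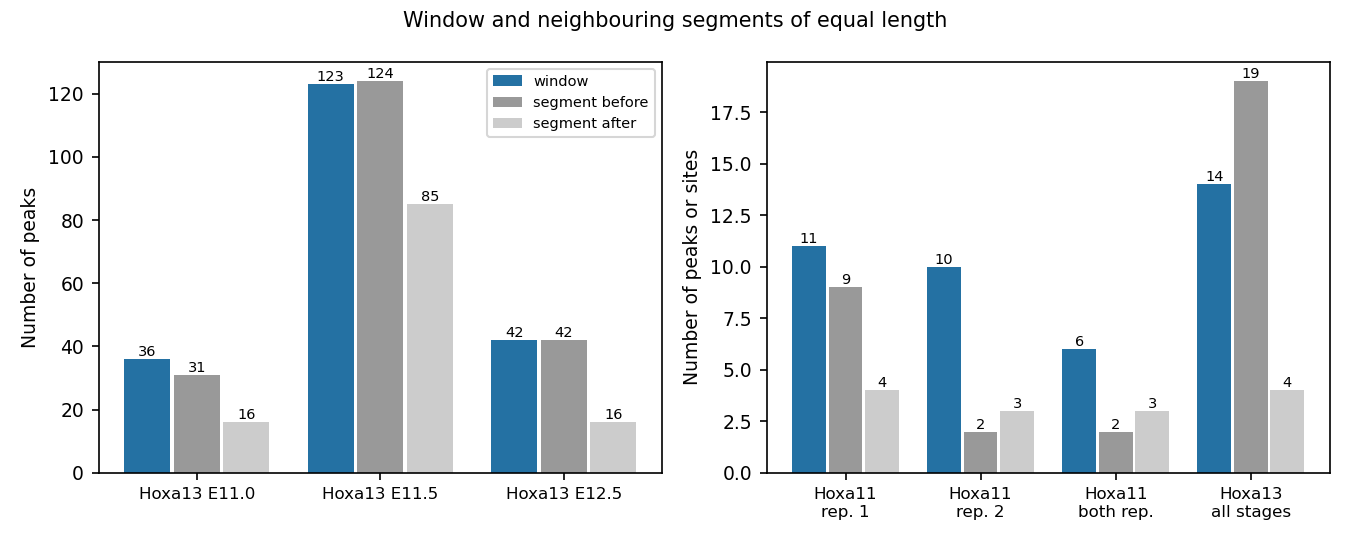
Number of peaks of each Hoxa13 list (left) and of Hoxa11 peaks, replicated Hoxa11 sites and sites of all 3 Hoxa13 stages (right) in the window (blue) and in the neighbouring segments of the same length before it (dark grey) and after it (light grey). Replicated Hoxa11 sites number 6 in the window, 2 before and 3 after, and sites of all 3 Hoxa13 stages 14, 19 and 4.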

How the data were processed

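Peak lists of 5 ChIP libraries were used, 1 for each Hoxa13 stage and 2 for Hoxa11. The build mm9 and the tools MACS2 2.1.0, Bowtie2 2.2.2 and CASAVA 1.4 are named, with no role, per the submitters' processing notes. Thresholds, duplicate handling and the use of input in calling are not given in the sources used here. The authors deposited 4 lists as positions only. The deposited list of Hoxa11 replicate 2 adds, from the authors' caller, a score (10 times the −log10 q, cut to a whole number), a fold enrichment (ratio), the −log10 p-value and q-value and the summit. Read depth is unknown, and unequal list lengths limit any comparison of counts.

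Peaks were taken by start, overlaps needed at least 1 bp, and positions are printed 1-based. Intervals are exact Clopper-Pearson at 95% (scipy 1.17.1, Python 3.11.15). The interval functions were tested on simulated data. With 1 library per stage no test between conditions was made. Alternatives were 50% reciprocal overlap, lists of equal length, the wider 50% of each list, merging across 500 bp, peaks overlapping the window in place of starting in it, a −log10 q of at least 5 and single Hoxa11 replicates. Sites named are all those with Hoxa11 or with all Hoxa13 stages, the 5 widest E11.5 peaks and the widest peak of other lists. The members, lists and choices were made with earlier results of these data known. No mm9 genome or annotation was used.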

Additional observations from a re-analysis of the deposited data

How the results depend on the processing

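Of 48 values recomputed under another setting, 13 moved by over 1.5 times (counts) or out of their interval (shares). The others include values that a setting could not change, such as E12.5 counts under lists of equal length, and their number is no measure of stability. Under a reciprocal overlap of 50%, 58.3% of E11.0 peaks had an E11.5 partner, 7.32% of E11.5 peaks an E12.5 partner and 21.4% of E12.5 peaks an E11.5 partner, and the sites of all 3 Hoxa13 stages numbered 6. A peak less than 50% as wide as its partner cannot meet this rule. Median widths in the window were 324 bp at E11.5 and 164.5 bp at E12.5. The part of width in these drops was not tested. With Hoxa13 lists of equal length the window held 59 peaks at E11.5, of which 47.5% had an E12.5 partner, and for E11.0 peaks the share with an E11.5 partner was 55.2%. These lists drop E11.5 peaks by construction. Shares of the whole lists were not recomputed under a reciprocal overlap of 50% or at equal length. In the wider 50% of each list the window held 17 peaks at E11.0, 24 at E12.5, 7 in Hoxa11 replicate 1 and 6 in replicate 2. Cutting a list in this way can only lower its count. Taking 1 Hoxa11 replicate in place of sites of both gave 10 to 11 sites, against 6, and such a number cannot be below that of the shared sites. No paired analysis was possible because only Hoxa11 has more than 1 library. Numbers of peaks of 10 to 42 in 4 of the lists limit what differences in shares can be seen, and single libraries leave stage differences without a replicate check.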

Other observations

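A pair of stretches stood out by eye after the values had been seen and are given as descriptions. Between 410 and 450 kb from the start of the window lay 4 of its 10 widest E11.5 Hoxa13 peaks, and the whole stretch held 4 E11.0 peaks, 5 E11.5 peaks, 5 E12.5 peaks and 1 of each Hoxa11 replicate, the site with the authors' highest Hoxa11 enrichment in the window. Of those 10 widest peaks, all of 658 bp or more, 9 met another Hoxa13 stage and 4 met Hoxa11.

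Between 740 and 820 kb lay 6 Hoxa11 peaks of replicate 1 and 4 of replicate 2, along with 1 E11.0, 8 E11.5 and 5 E12.5 peaks of Hoxa13. The longest gap between neighbouring E11.0 peaks inside the window lay here, 104 kb from 75250015 to 75354148. It spans all 3 replicated Hoxa11 sites that start from 743 kb on.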
